A study of Mus musculus with 16 samples.

Results

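The pyruvate dehydrogenase complex is the mitochondrial gate between sugar and fat as fuels of the heart: it turns pyruvate into acetyl-CoA, irreversibly. Pyruvate dehydrogenase kinases phosphorylate the complex and switch it off, and phosphatases switch it back on. Fatty acid oxidation raises kinase activity, and the kinase gene Pdk4 is a known target of PPARalpha, the nuclear receptor that drives fatty acid use in cardiac muscle. The genes described here are the 4 kinases (Pdk1, Pdk2, Pdk3 and Pdk4) and 4 subunit genes of the complex (Pdha1, Pdhb, Dlat and Pdhx). They were chosen by name, with earlier results of these data known. Every probe set that maps to exactly 1 of these symbols was taken, which gave 15 of the 45037 probe sets on the array that are not controls.

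The arrays measured RNA from left ventricles of mice. The 4 groups were PPARalpha-/- mice 28 days after TAC (transverse aortic constriction, in which a band around the aorta makes the ventricle pump against a higher pressure), called KO TAC; PPARalpha-/- mice after a sham operation, called KO sham; wild-type mice after TAC, called WT TAC; and wild-type mice after a sham operation, called WT sham. Each group had 4 arrays, and all groups were taken at day 28. The labels give no strain, age or sex, and do not say that each array was a separate animal, so the spread behind each p-value is that between arrays and may be partly technical. All values are scanner signal intensities on a linear scale, scaled by the authors to a common mean per array, and differences are given as log2 fold changes with their standard errors.

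The targeted gene was low where the labels say so. The signal of Ppara averaged 461 in KO TAC hearts and 616 in KO sham hearts, against 1759 in WT TAC hearts and 2009 in WT sham hearts. The highest KO array read 727.1 and the lowest WT array 1384.9, so the genotypes did not overlap. Where its probes fall relative to the deletion was not tested. All 7 cardiomyocyte markers were measured in every group, with a summed signal of 401660 to 733464 per array, so they were bright throughout. Whether these markers tell ventricle from atrium was not tested. Summed signals of 3 atrial markers were far lower but uneven, at 752.6 to 5231.3 in KO TAC, 1322.3 to 26325.3 in KO sham, 259.7 to 2073.6 in WT TAC and 419.2 to 8128.7 in WT sham hearts. In bulk tissue, fewer cells of a type and less RNA per cell cannot be told apart.

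Of the 8 genes, 7 were bright enough to be tested among 10916 genes (the brightest 60% of those with a probe set of their own), and Pdk3 was not. Only Pdk4 passed the test (limma, Benjamini-Hochberg adjusted p under 0.05), and only in the comparisons of genotypes. It was lower in KO than in WT hearts after the sham operation and after TAC. In KO sham against WT sham hearts 1 of 7 members was called, where 0.742% of all tested genes were. In KO TAC against WT TAC hearts 1 of 7 was called, against a background of 2.46%. In WT TAC against WT sham hearts 0 of 7 were called and the background was 0%, although 832 of all tested genes had an unadjusted p under 0.05. In KO TAC against KO sham hearts 0 of 7 were called, against a background of 2.57%. The interaction of genotype and TAC called 0 of 7, against 0% of all tested genes, with 1128 genes at an unadjusted p under 0.05. At that unadjusted level there were 2 of 7 members in KO sham against WT sham hearts, beside 930 of the 10916 tested genes. There was 1 of 7 in KO TAC against WT TAC hearts, beside 1794 of 10916, a share close to the background, and there were 0 members in the other comparisons. The median log2 fold change of the 7 members was -0.03, -0.05, 0.01 and 0.03 in those 4 pairwise comparisons, beside 0.02, 0.03, 0.00 and 0.00 for all tested genes.

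**Figure D1:**
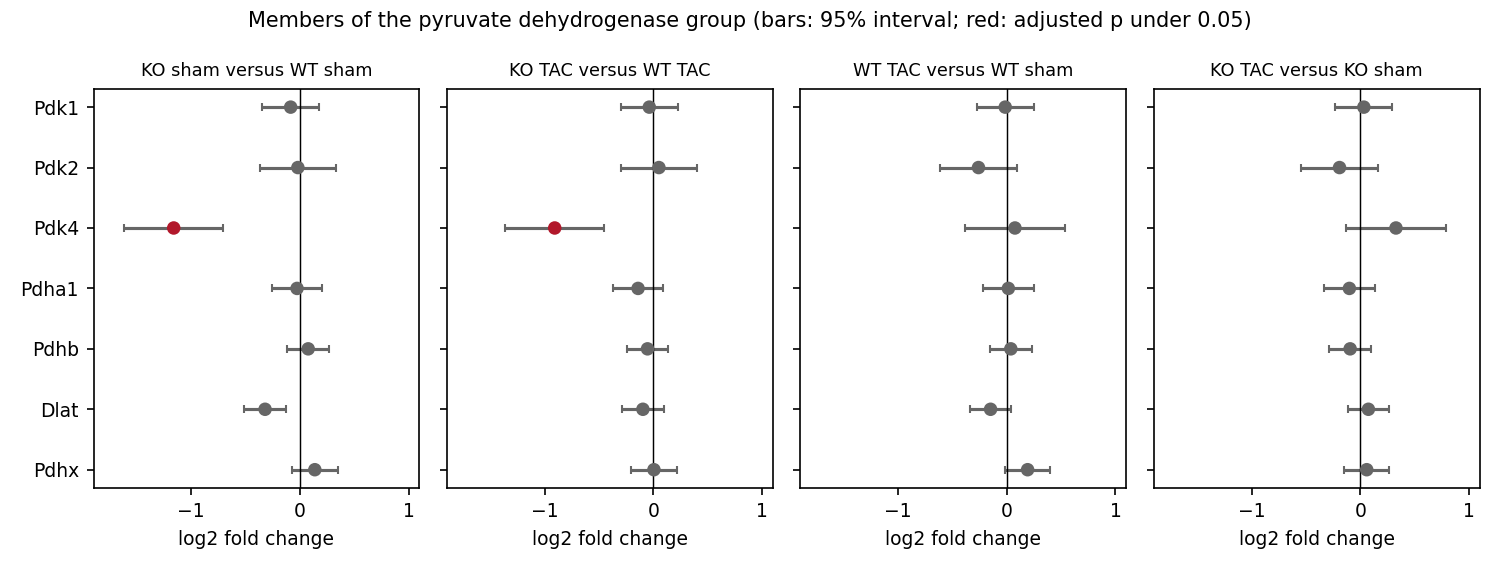
Log2 fold changes of the 7 tested members (rows) in the 4 pairwise comparisons (panels), with 95% intervals from limma. Red points have an adjusted p under 0.05: Pdk4 is at -1.16 in KO sham against WT sham and -0.91 in KO TAC against WT TAC hearts, and the other members lie between -0.32 and 0.19.

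The upstream sequences of the kinase that changed and of the kinase Pdk2, which did not pass in any comparison, are shown for the reader to set side by side. RefSeq promoters (250 bases before to 50 after the annotated start, build GRCm38.p6) were found for all 8 members, 10 promoters in all, since Pdk1 and Pdk2 each have 2 annotated starts. Capitals mark a CCAAT box, here on the opposite strand and so read as ATTGG. The Pdk4 sequence is chr6:5496229-5496528 on the minus strand, and the Pdk2 sequence is the upstream of its 2 starts, chr11:95041322-95041621 on the minus strand.
Pdk4 promoter: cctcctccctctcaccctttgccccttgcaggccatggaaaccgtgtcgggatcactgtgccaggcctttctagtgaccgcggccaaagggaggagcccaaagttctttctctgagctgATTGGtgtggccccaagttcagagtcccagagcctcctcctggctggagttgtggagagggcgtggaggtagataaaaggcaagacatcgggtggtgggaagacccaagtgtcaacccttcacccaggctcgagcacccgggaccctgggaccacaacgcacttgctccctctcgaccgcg
Pdk2 promoter: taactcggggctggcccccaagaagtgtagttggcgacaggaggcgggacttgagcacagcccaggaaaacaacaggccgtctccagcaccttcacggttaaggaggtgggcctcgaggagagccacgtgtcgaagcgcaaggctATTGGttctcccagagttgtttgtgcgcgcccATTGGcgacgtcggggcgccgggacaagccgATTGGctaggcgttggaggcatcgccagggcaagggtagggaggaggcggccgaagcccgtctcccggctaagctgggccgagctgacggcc
The Pdk4 window holds 1 such box, at 131 to 127 bases before the start, and the Pdk2 window shown holds 3. The window of the other Pdk2 start, which is not shown, has no such box. Across the members, 5 of 10 promoters hold a CCAAT box on either strand, beside 37.41% of 32851 RefSeq promoters of the same length. The half-site AGGTCA, which nuclear receptors such as PPARalpha recognise, was searched on both strands as well. It was in 0 of 10 member promoters and in 16.26% of all promoters. The pair of half-sites AGGTCANAGGTCA was in 0 of 10 and in 0.04% of all, and the estrogen-related receptor element TCAAGGTCA in 0 of 10 and in 0.42% of all. Both of the longer motifs contain the half-site. No match says only that these letters are not in these windows.

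Pdk4 is the kinase isoform known to rise in heart with fasting and fat supply. Its probe set 1417273_at read 11882.7, 12188.3, 12558.3 and 12186.2 in KO TAC hearts. It read 14341.2, 11063.0, 6977.7 and 8047.6 in KO sham hearts. In WT TAC hearts it read 21535.0, 23074.9, 28171.3 and 19636.8, and in WT sham hearts 14776.0, 24294.9, 25729.8 and 24170.2. All KO arrays lay below all WT arrays of the same operation. In the sham groups the margin was narrow, since KO sham 1 and WT sham 1 nearly met. Pdk4 was 2.24-fold lower in KO sham than in WT sham hearts (log2 fold change -1.16 ± 0.21, 95% interval -1.62 to -0.70, limma adjusted p = 0.0164). It was 1.88-fold lower in KO TAC than in WT TAC hearts (-0.91 ± 0.21, 95% interval -1.37 to -0.45, limma adjusted p = 0.0377).

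The Pdk4 calls were close to the threshold. In KO sham against WT sham hearts the call was lost without WT sham 2, 3 or 4 or without KO sham 3 or 4, with limma adjusted p of 0.0534 to 0.0666 and log2 fold changes of -1.11 to -1.003. In KO TAC against WT TAC hearts it was lost without each of the 8 arrays in turn (limma adjusted p = 0.0599 to 0.103), at log2 fold changes of -0.98 to -0.81. It was also lost without KO TAC 2, KO TAC 3 and WT TAC 3, the 3 arrays whose hybridisation spike-in signals lay farthest from the median (-0.83 ± 0.29, limma adjusted p = 0.335). In a fit of every probe set with no filter on dim ones, Pdk4 had limma adjusted p of 0.110 and 0.166, and 0 of 15 member probe sets were called in any comparison. That fit called 0.111% of probe sets in KO sham against WT sham, 0.253% in KO TAC against WT TAC, 0% in WT TAC against WT sham, 0.187% in KO TAC against KO sham hearts, and 0.00222% for the interaction.

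TAC itself left Pdk4 without a call in either genotype. The difference of KO TAC from KO sham hearts was 0.33 ± 0.21 on the log2 scale (limma adjusted p = 0.5), and that of WT TAC from WT sham hearts 0.08 ± 0.21 (limma adjusted p = 0.965). The interaction was 0.25 ± 0.30 with a 95% interval of -0.39 to 0.90 (limma adjusted p = 0.816), so the effect of genotype was not shown to differ between the operations. The arrays differed in spread: the coefficient of variation of Pdk4 was 2.27% in KO TAC, 32.8% in KO sham, 15.8% in WT TAC and 22.6% in WT sham hearts.

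Other measures also moved with these groups. The summed signal of the 7 cardiomyocyte markers was 401660 to 511584 in KO TAC against 525996 to 733464 in WT TAC hearts, which do not overlap, with 0 of 7 called. In the sham groups the same sum was 469265 to 570419 in KO sham against 422989 to 506178 in WT sham hearts. The fibroblast marker Postn, a matrix protein of activated fibroblasts, was the only 1 of 4 fibroblast markers called, higher in KO TAC than in WT TAC hearts (log2 fold change 1.04 ± 0.20, limma adjusted p = 0.0149). The red cell enzyme gene Alas2 was also higher there (1.07 ± 0.22, limma adjusted p = 0.0189). The Actb ratio of 3' to 5' probe sets, a sign of RNA integrity, was 1.18 to 1.36 in KO TAC against 1.28 to 1.53 in WT TAC hearts. In the sham groups it was higher in both genotypes, at 1.52 to 1.75 in KO sham against 1.47 to 1.56 in WT sham hearts. The genotypes overlapped after each operation. The same ratio for Gapdh was 0.765 to 0.789 in KO TAC hearts, within the 0.747 to 0.799 of WT TAC hearts. The summed signal of 3 macrophage markers was 8476.7 to 10793.5 in KO TAC against 6889.7 to 8347.5 in WT TAC hearts, and 8636.9 to 9437.3 in KO sham against 6616.1 to 8283 in WT sham hearts, so every KO array lay above every WT array of the same operation, with 0 of 3 markers called. The sum of 3 smooth muscle markers was 7905.5 to 11813.9 in KO TAC against 11651.4 to 18056.8 in WT TAC hearts, again with 0 of 3 called. In the sham groups it was 4607 to 11620.9 in KO sham against 9789.7 to 15609.8 in WT sham hearts. Most of this signal was Acta2, with means of 8827 in KO TAC and 13516 in WT TAC hearts. In that comparison the log2 fold change was -0.61 ± 0.27 for Acta2, -0.40 ± 0.39 for Myh11 and 0.15 ± 0.23 for Tagln. The 1 adipocyte marker measured, Adipoq, was below the filter on dim genes and read 11.9 to 133.9 in KO TAC, 12.1 to 223.1 in KO sham, 11.9 to 13.7 in WT TAC and 11.9 to 97.4 in WT sham hearts, where 11.9 is the signal floor. The part of these measures in the Pdk4 difference was not tested.

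**Figure D2:**
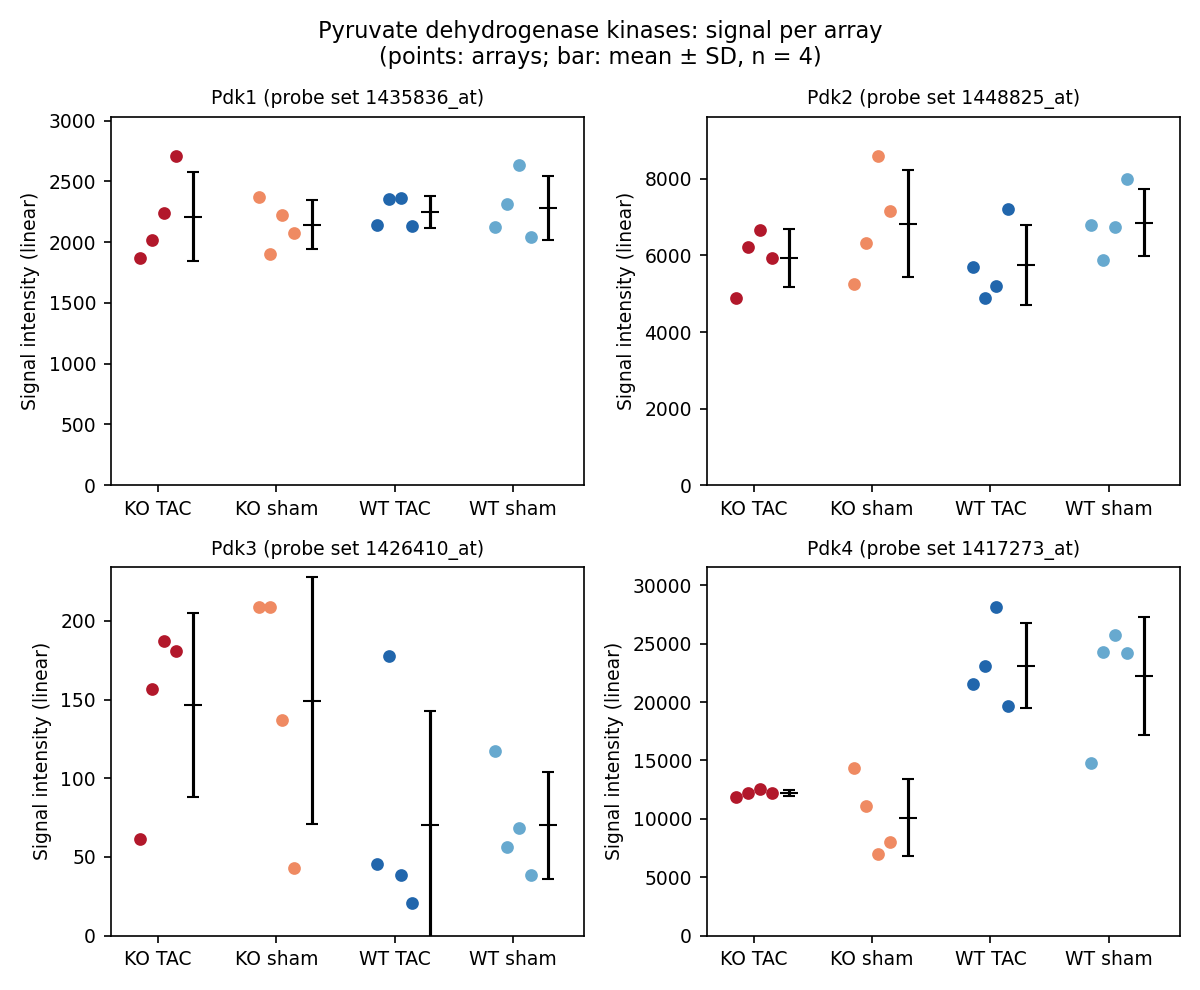
Signal intensity (linear, arbitrary units) of the 4 kinase genes on each array by group; points are arrays and bars mark the mean ± SD of 4. Pdk4 lies at or below 14341.2 on every KO array and at or above 14776 on every WT array. The brightest Pdk1 probe set and Pdk2 overlap between groups, and Pdk3 is dim throughout.

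Pdk2, an isoform present in most tissues, had a single probe set, 1448825_at. It read 4898.5, 6218.6, 6669.1 and 5929.7 in KO TAC hearts and 5265.6, 6312.0, 8593.9 and 7157.5 in KO sham hearts. It read 5701.8, 4886.9, 5192.5 and 7225.4 in WT TAC hearts, and 6803.8, 5868.1, 6739.3 and 8005.6 in WT sham hearts. All groups overlapped. Its log2 fold change was -0.02 ± 0.16 in KO sham against WT sham and 0.05 ± 0.16 in KO TAC against WT TAC hearts, with 95% intervals of -0.37 to 0.33 and -0.30 to 0.40. After TAC it was -0.19 ± 0.16 in KO hearts and -0.26 ± 0.16 in WT hearts, without a call (limma adjusted p = 0.639 and 0.742).

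Pdk1, the isoform known to be raised by hypoxia signalling, had 4 probe sets. The brightest, 1435836_at, read 1871.5, 2014.8, 2238.3 and 2707.7 in KO TAC hearts and 2374.4, 1905.7, 2219.1 and 2076.3 in KO sham hearts. It read 2138.1, 2355.0, 2362.9 and 2130.9 in WT TAC hearts, and 2126.4, 2309.5, 2636.7 and 2039.1 in WT sham hearts. The groups overlapped, and no log2 fold change exceeded 0.09 in size in the 4 pairwise comparisons, with a 95% interval of -0.35 to 0.18 for KO sham against WT sham hearts.

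The Pdk1 probe sets did not tell 1 story. 1423747_a_at read 1223.6 to 1375.9 in KO sham against 1421.2 to 1896.8 in WT sham hearts, which did not overlap (log2 fold change -0.38 ± 0.16). It read 1400.1 to 1755.4 in KO TAC against 1008.5 to 1655 in WT TAC hearts, which did overlap (0.19 ± 0.16). Its KO TAC arrays also lay above all its KO sham arrays (0.28 ± 0.16). Of all tested genes, 5.91% separated in KO sham against WT sham hearts and 10.8% in KO TAC against KO sham hearts. The interaction of 1423747_a_at was 0.57 ± 0.23 (limma adjusted p = 0.661), while those of 1435836_at and 1423748_at were 0.05 ± 0.21 and -0.13 ± 0.24. Across the 16 arrays, the correlations among the 4 Pdk1 probe sets ran from 0.07 to 0.44. The dimmest, 1434974_at, read 22.4 to 146.9.

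Pdk3 had a single probe set, 1426410_at, below the filter on dim genes. It read 61.1, 156.4, 187.0 and 181.0 in KO TAC hearts and 208.5, 209.1, 136.9 and 43.0 in KO sham hearts. It read 45.3, 177.6, 38.3 and 20.8 in WT TAC hearts, and 117.5, 56.4, 68.5 and 38.3 in WT sham hearts. The means were higher in KO hearts, but the groups overlapped. In the fit of all probe sets its log2 fold change was 0.97 ± 0.66 in KO sham against WT sham and 1.41 ± 0.66 in KO TAC against WT TAC hearts (limma adjusted p = 0.948 and 0.482).

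Among the subunit genes, 0 of 4 were called in any comparison. Pdha1 and Pdhb encode the alpha and beta subunits of the first enzyme of the complex, and the alpha subunit carries the serines that the kinases phosphorylate. The Pdha1 probe set 1418560_at read 22094.3 to 27467.6 in KO TAC, 25387.3 to 28026.5 in KO sham, 25403.9 to 32109.1 in WT TAC and 23955.7 to 31585.6 in WT sham hearts. Its log2 fold change was -0.03 ± 0.11 in KO sham against WT sham and -0.14 ± 0.11 in KO TAC against WT TAC hearts. The Pdhb probe set 1416090_at read 42839.7 to 51581.2 in KO TAC, 44739.6 to 54850 in KO sham, 46981.3 to 50006.1 in WT TAC and 45999.6 to 49775.7 in WT sham hearts. Its 95% interval was -0.11 to 0.27 in KO sham against WT sham hearts and -0.24 to 0.14 in KO TAC against WT TAC hearts. Neither gene's groups separated. The second Pdha1 probe set, 1449137_at, gave -0.01 ± 0.24 in the sham and -0.12 ± 0.24 in the TAC comparison and correlated with the first at 0.79 over 16 arrays. The second Pdhb probe set, 1448214_at, gave 0.14 ± 0.12 and 0.19 ± 0.12 and correlated with its partner at 0.13.

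Dlat encodes the dihydrolipoyl transacetylase that forms the core of the complex. Its brightest probe set, 1426265_x_at, read 7775.9, 8688.3, 8520.4 and 10061.9 in KO TAC hearts and 8155.1, 8609.6, 8416.9 and 7961.8 in KO sham hearts. It read 9594.8, 8544.8, 9549.6 and 9665.8 in WT TAC hearts, and 10796.1, 10175.1, 10069.8 and 10353.8 in WT sham hearts. The WT sham arrays were the highest and overlapped neither KO sham nor WT TAC arrays, comparisons that share those WT sham arrays. Such separation held for 2 of 7 members (Pdk4 and Dlat) in KO sham against WT sham hearts, where 5.91% of all tested genes separated, and for 1 of 7 (Pdk4) in KO TAC against WT TAC hearts, where 9.55% did. In WT TAC against WT sham hearts it held for 1 of 7 (Dlat), against 4.28%, and in KO TAC against KO sham hearts for 0 of 7, against 10.8%. The log2 fold change of Dlat was -0.32 ± 0.09 in KO sham against WT sham hearts and did not pass (limma adjusted p = 0.179), and -0.10 ± 0.09 in KO TAC against WT TAC hearts. The suffix of this probe set marks probes that may also bind other transcripts, and the other Dlat probe sets were smaller in the sham comparison, at -0.15 ± 0.14 for 1426264_at and -0.11 ± 0.11 for 1452005_at. The arrays of 1452005_at also separated, at 4005.1 to 4335.5 in KO sham and 3801.7 to 4478.6 in WT TAC against 4505.5 to 4648.3 in WT sham hearts, and at 3309 to 4002.3 in KO TAC against its KO sham range. Those of 1426264_at overlapped in all 4 pairwise comparisons.

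Pdhx encodes the protein that anchors dihydrolipoamide dehydrogenase to the core. Its probe set 1456090_at read 3497.3 to 3799.1 in KO TAC, 3335.3 to 3771 in KO sham, 3075 to 3964 in WT TAC and 2981.9 to 3448.8 in WT sham hearts. All groups compared overlapped. The log2 fold change was 0.14 ± 0.10 in KO sham against WT sham hearts and 0.01 ± 0.10 in KO TAC against WT TAC hearts, and 0.19 ± 0.10 in WT TAC against WT sham hearts (limma adjusted p = 0.672).

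**Figure D3:**
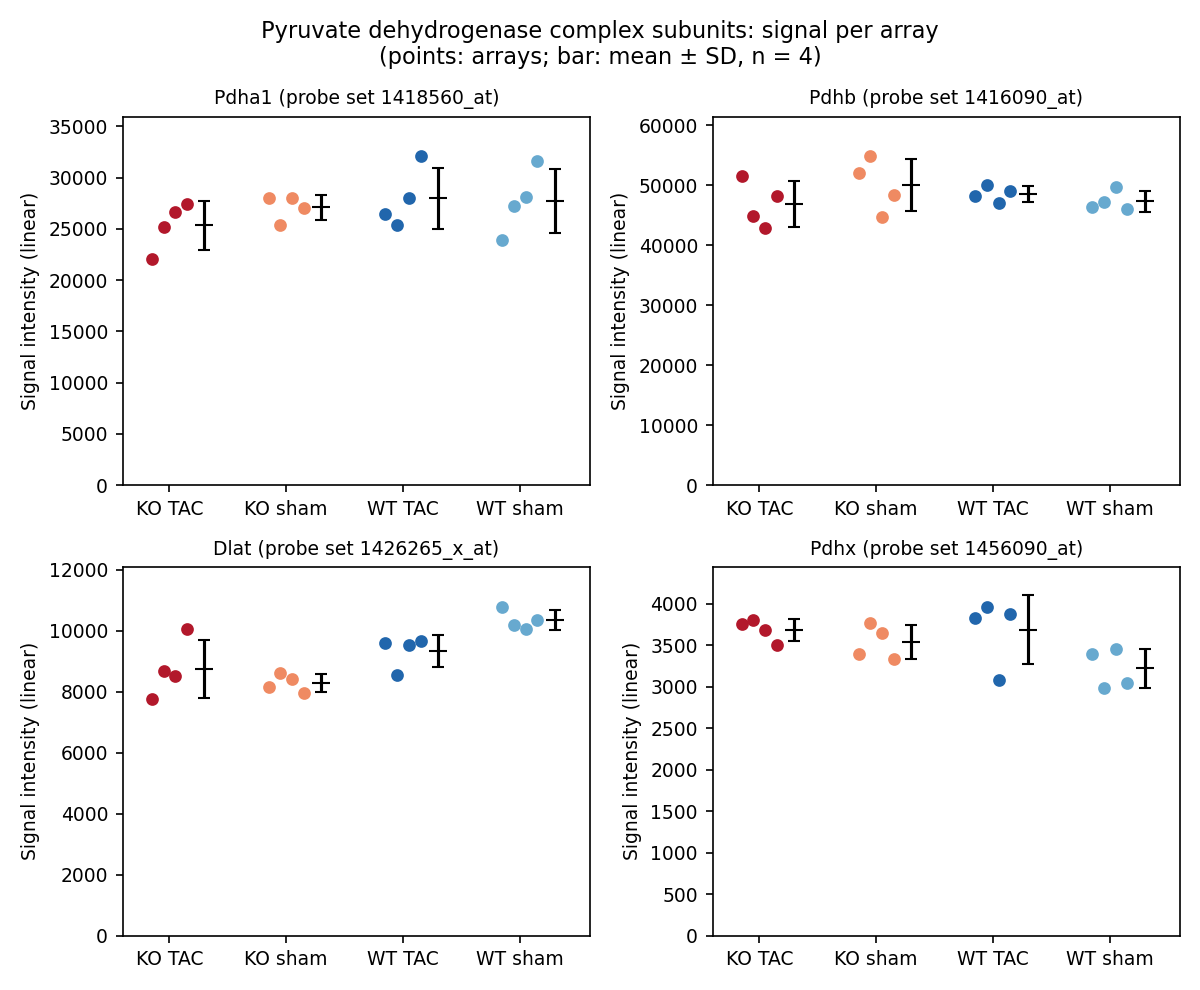
Signal intensity (linear, arbitrary units) of the brightest probe set of each subunit gene on each array by group; points are arrays and bars mark the mean ± SD of 4. Dlat reads at most 8609.6 on all 4 KO sham arrays and at least 10069.8 on all 4 WT sham arrays, and Pdha1, Pdhb and Pdhx overlap in each of the 4 pairwise comparisons.

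**Figure D4:**
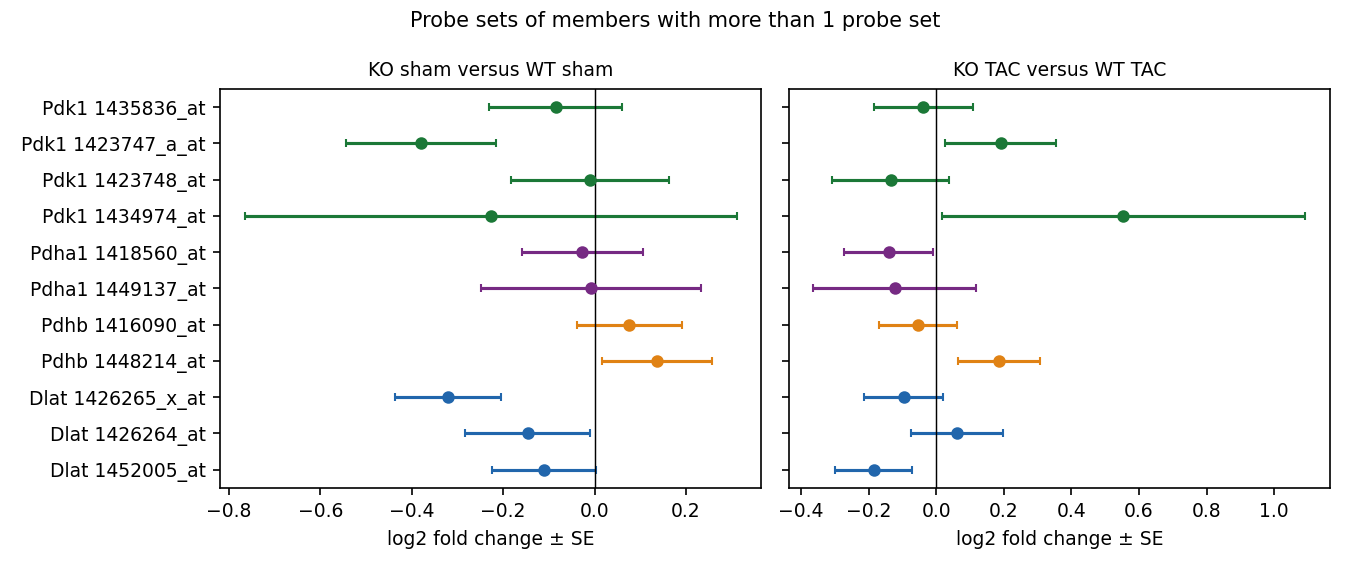
Log2 fold changes ± SE for all probe sets of the members with more than 1 probe set, in KO sham against WT sham (left) and KO TAC against WT TAC hearts (right). The Pdk1 probe sets spread from -0.38 to -0.01 in the sham comparison and from -0.13 to 0.55 after TAC.

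Dihydrolipoamide dehydrogenase (Dld) and the phosphatases that reactivate the complex (Pdp1, Pdp2 and the regulatory subunit Pdpr) were all tested, and 0 of 4 were called in any comparison. Pdp1 had the smallest p in KO sham against WT sham hearts, at 0.62 ± 0.22 on the log2 scale (limma adjusted p = 0.337), followed by Dld at -0.15 ± 0.14. Pdp2 did in KO TAC against WT TAC hearts, at -0.76 ± 0.24 (limma adjusted p = 0.127), followed by Pdp1 at 0.30 ± 0.22.

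Of the genes that supply pyruvate or use it otherwise, 11 of 13 were tested and 1 was called, the malic enzyme gene Me1, lower in KO hearts. Its mean signal was 1394 in KO TAC and 1330 in KO sham hearts, against 2432 in WT TAC and 2738 in WT sham hearts. The log2 fold change was -1.05 ± 0.13 in KO sham against WT sham (limma adjusted p = 0.000601) and -0.81 ± 0.13 in KO TAC against WT TAC hearts (limma adjusted p = 0.00392). The pyruvate carrier gene Mpc1, the lactate dehydrogenase genes Ldha and Ldhb and the pyruvate carboxylase gene Pcx did not pass in either genotype comparison. The alanine transaminase gene Gpt2 had the smallest p of this list in WT TAC against WT sham hearts, at -1.04 ± 0.17 (limma adjusted p = 0.128). Between genotypes Gpt2 was at 0.58 ± 0.17 in KO TAC against WT TAC hearts (limma adjusted p = 0.0997). In KO sham against WT sham hearts it was at -0.12 ± 0.17 (limma adjusted p = 0.908).

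The genes for lipoate and thiamine cofactors, which the complex needs, gave 0 of 7 calls in every comparison. The smallest p belonged to Lias (0.23 ± 0.11) and Bola3 (-0.14 ± 0.08) in KO sham against WT sham hearts, and to Bola3 (-0.21 ± 0.08) and the thiamine transporter gene Slc19a2 (0.32 ± 0.20) in KO TAC against WT TAC hearts. Of the related 2-oxo acid dehydrogenases, their kinase and their phosphatase, 0 of 7 were called between genotypes. Bckdhb (0.26 ± 0.13) and Ppm1k (0.18 ± 0.17) had the smallest p in the sham comparison, and Ppm1k (-0.56 ± 0.17) and Dlst (0.15 ± 0.12) in the TAC comparison. The branched-chain phosphatase gene Ppm1k was called lower in KO TAC than in KO sham hearts (-0.75 ± 0.17, limma adjusted p = 0.0323). Its interaction was -0.74 ± 0.24 (limma adjusted p = 0.367).

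Of 13 known regulators of Pdk4 transcription, all were tested. In KO sham against WT sham hearts 1 was called, Ppara itself, and in KO TAC against WT TAC hearts Ppara and Rxrg, a partner receptor of PPARs (-0.36 ± 0.09, limma adjusted p = 0.0443). Foxo3, a forkhead factor, was called lower in KO TAC than in KO sham hearts (-1.02 ± 0.23, limma adjusted p = 0.0329).

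Pdk4 was set beside other known PPARalpha targets in heart, a list drawn up with earlier results of these data known. Of 17 tested genes of that list, 8 were called lower in KO sham than in WT sham hearts, with a median log2 fold change of -0.58, and 12 in KO TAC than in WT TAC hearts, with a median of -0.74. By TAC, 0 of 17 were called in either genotype. In the sham comparison Pdk4, at -1.16, lay between Cpt2, the inner membrane carnitine palmitoyltransferase gene, at -1.32 ± 0.10 and Acot2, a mitochondrial thioesterase gene, at -1.06 ± 0.28. The genes called in the sham comparison were Ucp3, Cpt2, Slc25a20, Acadvl, Hadha, Decr1, Plin5 and Mlycd, with log2 fold changes of -2.62 (Plin5, a lipid droplet protein gene) to -0.58 (Mlycd, which removes malonyl-CoA). The genes called after TAC were Ucp3, Cpt2, Slc25a20, Acadvl, Hadha, Decr1, Plin5, Mlycd, Acot2, Acadm, Hadhb and Fabp3, at -2.62 (Plin5) to -0.47 (Fabp3, the heart fatty acid binding protein gene). Pdk2 and the brightest Pdk1 probe set lay within 0.09 of 0 in both comparisons. The other Pdk1 probe sets ran from -0.38 to -0.01 in the sham comparison and from -0.13 to 0.55 after TAC.

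**Figure D5:**
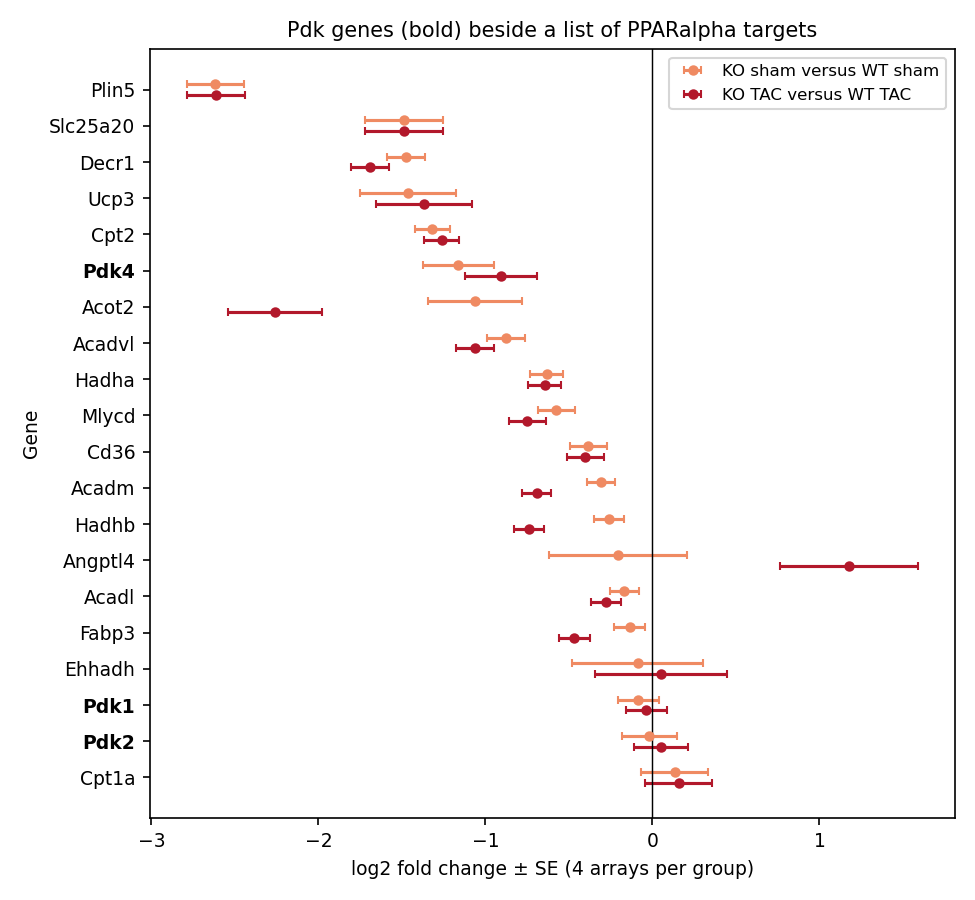
Log2 fold changes ± SE of Pdk1, Pdk2 and Pdk4 (bold) and 17 known PPARalpha targets, in KO sham against WT sham and in KO TAC against WT TAC hearts, ordered by the sham comparison. Pdk4 lies among the genes that were lower in KO hearts, and Pdk2 and the brightest Pdk1 probe set lie near 0.

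The genes most like each member were taken by Pearson correlation of log2 signal over the 16 arrays. These values are descriptions: the arrays share the group differences, so each is followed by the correlation left after group means were removed. The partners were picked as the highest among all tested genes on these same arrays, which can also raise the values within groups. For Pdk4 the closest was Gpam, which starts glycerolipid synthesis, with r of 0.93 (0.61 within groups). The next were Ablim1 (0.89, 0.30 within groups), Slc25a20, the carnitine carrier gene (0.88, 0.40 within groups), Tesc (0.87, 0.12 within groups) and Plbd1 (0.86, 0.56 within groups). For Pdha1 it was Ndufs1, a subunit gene of respiratory complex I, with r of 0.95 (0.96 within groups). Next came Dld, the gene of the third enzyme of the pyruvate dehydrogenase complex (0.87, 0.87 within groups). Pdhb was closest to the ribosomal protein gene Rps2 (0.84, 0.84 within groups), and Dlat to Tmem267 (0.84, 0.65 within groups). Pdhx was closest to Aplnr (0.89, 0.91 within groups), Pdk1 to Hnrnph3 (0.82, 0.84 within groups) and Pdk2 to Tle5 (0.85, 0.87 within groups).

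The members varied together only in part. After group means were removed, Pdk2 ran against Pdk4 (r = -0.57) and Pdhb (r = -0.64) and with Pdha1 (r = 0.59) over the 16 arrays. These were the largest in size among all pairs of tested members, picked after all were seen. The other pairs ran from -0.38 to 0.42. Pdk4 and Dlat had r of 0.61 over all arrays and -0.13 within groups.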

How the data were processed

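The deposited table holds signal intensity per probe set on a linear scale for 16 Affymetrix 430 2.0 arrays; GCOS 1.4 is named in the submitters' processing notes, and the values show each array scaled by the authors to a trimmed mean near 500. Detection calls were not used here. Values under the 10th percentile (11.9) were set to it before log2 was taken; nothing else was normalized. Of 45101 probe sets, 64 are controls, 34945 have 1 gene in the array's annotation, 932 several and 9160 none; 34741 symbols were matched by gene ID to RefSeq of GRCm38.p6 and 204 were kept. The brightest probe set stood for each of 18193 genes, and the dimmest 40% of genes were left out, which left 10916. limma 3.58.1 in R 4.3.3 fitted 1 coefficient per group on all 16 arrays, with 5 contrasts and Benjamini-Hochberg adjustment over all tested genes (two-sided, threshold 0.05). A second fit took all 45037 probe sets. The fit by gene was tested on simulated data for the 4 pairwise contrasts. The number of arrays limits the precision. All members and their probe sets are named. Of the other lists, the genes that passed are named. Where none passed, the 2 with the smallest p are named, in the comparisons of genotypes. From the pyruvate list, Gpt2, Mpc1, Ldha, Ldhb and Pcx are also named without a call. For each member the 5 closest genes by correlation were found, and the first of them are given. Members and lists were chosen with earlier results of these data known. No pair of arrays held identical values. Alternatives changed the normalization, floor, filter, probe set choice, variance model, array weights, arrays fitted, replicate block and spike-in signal, or left out each array in turn.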

Additional observations from a re-analysis of the deposited data

Results flagged for a closer look

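In 6 of 60 groups of 4 values, 1 array stood apart from the others by Dixon's test on log2 values at the 95% level. Chance alone marks about 1 group in 20. The readings given below are linear signals. Pdk4 read 14776 in WT sham 1, with the other WT sham arrays at 24170.2 to 25729.8; without it the KO sham difference was -1.35 on the log2 scale. Dlat (1426265_x_at) read 8544.8 in WT TAC 2, against 9549.6 to 9665.8 in the other WT TAC arrays. Pdhx read 3075 in WT TAC 3, against 3831.5 to 3964. Pdha1 (1449137_at) read 14361.7 in WT TAC 4, against 9322.6 to 9838.1. Pdk1 (1434974_at) read 22.4 in KO sham 2, against 83.4 to 106.7, and Pdk3 read 61.1 in KO TAC 1, against 156.4 to 187, both on dim probe sets.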

How the results depend on the processing

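Pdk4 stayed lower in KO hearts under every alternative run in both comparisons of genotypes, but its call did not. In KO sham against WT sham hearts 1 member was called in 12 of 14 alternatives, with log2 fold changes of -1.25 to -1.16. The count was 0 when only the arrays compared were fitted (limma adjusted p = 0.171) and 0 with the replicate block (limma adjusted p = 0.0574). Without 1 array it was 0 to 1. In KO TAC against WT TAC hearts Pdk4 was called in 7 of 14. The count was 0 with quantile normalization (log2 fold change -0.83, limma adjusted p = 0.0532), with arrays centred on their medians (-0.72, 0.0787), with no filter on dim genes (0.0952), with the mean of probe sets (0.0621), with the replicate block (0.0807), with the spike-in signal as covariate (-0.71, 0.427) and without the 3 arrays whose spike-in signal was most extreme (-0.83, 0.335). Without 1 array it was 0. Median centring moved the median of all tested genes to 0.22 in KO TAC against WT TAC hearts, -0.12 in WT TAC against WT sham hearts and 0.13 in KO TAC against KO sham hearts. The number of all genes called, 81 in KO sham against WT sham, 268 in KO TAC against WT TAC and 280 in KO TAC against KO sham hearts, ran from 38 to 103, 56 to 424 and 55 to 426 over these alternatives; with median centring the 81 calls (25 higher, 56 lower) became 42 (7 higher, 35 lower), the 268 calls (144 higher, 124 lower) became 278 (238 higher, 40 lower), and the 280 (173 higher, 107 lower) became 176 (158 higher, 18 lower). The 0 in WT TAC against WT sham hearts became at most 2 (without WT sham 1), and that for the interaction at most 13. The count of called member probe sets, 0, became 1 with limma's trend and robust options, and 1 without the dimmest 40% of probe sets, an alternative chosen after seeing the data; without 1 array it was 0 to 1. The 6 other tested members gave 702 alternative values with 0 calls (lowest limma adjusted p = 0.0584, for Dlat), of which 68 changed sign. Same-numbered arrays did not deviate together (correlations of -0.19 to 0.14), so the numbers were not taken as pairs. The causes of these changes were not tested.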
